A study of Homo sapiens with 4 samples.

Results

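Selected miR-146 and miR-155 strands, 4 of the 1733 mature miRNAs counted in each library, were followed across 4 cell populations. Hep3B and Huh7 are established human hepatoma cell lines (the HCC cells), and Hep3B-C and Huh7-C are the hepatic cancer stem cells (HCSCs) of the respective line. The members were selected by name, as the entries hsa-miR-146a, hsa-miR-146b-5p, hsa-miR-146b-3p and hsa-miR-155, with their measured counts in these same libraries already known. Their values are therefore given as a description, and no p-value is attached to a member. Each of the 4 conditions was a single small RNA library, so no difference has a replicate check. Intervals are 95% intervals that cover counting error only. No treatment, dose or time is given for any group. The HCSCs are stem-like cells that the authors cultured from the parent line, so each pair stands for 1 cell line rather than for a set of tumors.

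In Hep3B, nearly all reads of the miR-146 guides came from hsa-miR-146a, and in Hep3B-C hsa-miR-146b-5p had joined it. The TPM of hsa-miR-146b-5p was 27.4-fold higher in Hep3B-C than in Hep3B, a log2 fold-change of 4.77. The size of this rise depended on the scaling. Its log2 fold-change was 3.01 by share of miRNA counts, 3.36 by TMM and 3.60 by DESeq2 size factors. In Huh7 and Huh7-C the order of the guides was the opposite, with hsa-miR-146b-5p the major guide and hsa-miR-146a low in both. The TPM levels of hsa-miR-146b-5p in Huh7 and Huh7-C were within counting error of each other. Hsa-miR-155 was at or near 0 in every library.

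MiR-146a, miR-146b and miR-155 are known as miRNAs of the inflammatory response. Toll-like receptor and NF-kB signalling induces miR-146a and miR-155 in immune cells, and miR-146 in turn represses the adaptor proteins IRAK1 and TRAF6, which closes a negative feedback loop. MiR-155 is processed from the BIC transcript and is best known from activated lymphocytes and macrophages. A miRNA recognizes its targets mainly through its seed, bases 2 to 8 from the 5′ end, and each hairpin precursor yields an arm on its 5′ side and an arm on its 3′ side, of which 1 is usually kept.

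The sequences are shown because the members differ in whether they share a seed. They come from RefSeq (GRCh38.p14), where all 4 members were matched by their later names, and the seed is in capitals. Ends can differ by a base from the older miRBase release to which the reads were assigned.
hsa-miR-146a: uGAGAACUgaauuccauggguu
hsa-miR-146b-5p: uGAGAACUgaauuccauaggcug
hsa-miR-146b-3p: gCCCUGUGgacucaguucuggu
hsa-miR-155: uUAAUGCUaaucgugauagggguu

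Hsa-miR-146a and hsa-miR-146b-5p hold the same seed. Over the 22 aligned bases, 20 were identical, and the differences were G18A and U21C, counted from 1 at the 5′ end with the base of hsa-miR-146a first. The first 17 bases were identical, and the shortest read kept by the authors had 18 nt, so a kept read that starts at the mature 5′ end reaches the first differing base. How many mismatches the mapping allowed is not given in the sources used here. Reads with an error or an end variant at that base could have been counted under the other name, and this was not tested. Of 2370 mature miRNAs in the RefSeq table, 3 hold this seed, the third being hsa-miR-7153-5p, which has no entry in the count tables. The seeds of hsa-miR-146b-3p and hsa-miR-155 were not shared with any other entry.

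The hairpins are shown with both mature arms in capitals, because hsa-miR-146b-5p and hsa-miR-146b-3p are arms of 1 hairpin and the other arm of hsa-miR-146a had no read.
MIR146A: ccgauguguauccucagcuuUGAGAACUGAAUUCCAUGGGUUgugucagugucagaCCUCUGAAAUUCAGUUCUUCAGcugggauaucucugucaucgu
MIR146B: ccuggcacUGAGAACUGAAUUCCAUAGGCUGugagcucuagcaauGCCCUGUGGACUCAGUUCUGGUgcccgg

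MIR146A lies on the plus strand of chromosome 5 (160485352 to 160485450, GRCh38, GENCODE release 29), in an exon of the long non-coding RNA gene MIR3142HG. MIR146B lies on the plus strand of chromosome 10 (102436512 to 102436584), outside any other annotated gene. MIR155 lies on the plus strand of chromosome 21 (25573980 to 25574044), in an exon of the long non-coding RNA gene MIR155HG. The count tables give no positions, and these coordinates are those of the genes of the same names.

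The miRNA counts summed to between 1739278 (Hep3B) and 5741567 (Huh7) per library, which was 10.4% of the total reads for Hep3B, 35.2% for Hep3B-C, 54.1% for Huh7 and 37.8% for Huh7-C. TPM divides a count by the total reads of its library, in units of 1000000 reads. It therefore follows this share, and the share of miRNA counts is given beside it. A level of 3 counts, set here as the floor, was between 0.179 TPM (Hep3B) and 0.282 TPM (Huh7). Over all miRNAs that reached 10 counts in 1 library of a pair or both, the median log2 fold-change (HCSC over HCC) was 1.42 for the 475 miRNAs of the Hep3B pair and -0.66 for the 431 of the Huh7 pair. With total miRNA counts as library sizes, every log2 fold-change shifts by -1.76 in the Hep3B pair (median -0.34) and by 0.52 in the Huh7 pair (median -0.15). Whether the cells or the libraries gave the differing miRNA shares cannot be told apart here, and in bulk samples fewer expressing cells and less RNA per cell cannot be told apart either.

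Hsa-miR-146a, the negative regulator of Toll-like receptor signalling, was among the most abundant miRNAs of the Hep3B line and minor in the Huh7 line. It had 116938 counts (6968 TPM, interval 6928 to 7008) in Hep3B, where it ranked 4th of 674 detected miRNAs. In Hep3B-C it had 185624 counts (12022 TPM, interval 11967 to 12077), ranking 8th of 773. The Huh7 library held 951 counts of it (89.5 TPM, interval 83.9 to 95.4) and the Huh7-C library 673 counts (62.8 TPM, interval 58.2 to 67.7), at ranks 100 of 712 and 92 of 664. Both Hep3B libraries thus lay far above both Huh7 libraries. As a share of miRNA counts, hsa-miR-146a made up 6.72% of Hep3B and 3.42% of Hep3B-C. In the Huh7 line it made up 0.0166% of Huh7 (interval 0.0155% to 0.0177%) and 0.0166% of Huh7-C (0.0154% to 0.0179%), which overlap.

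Within the lines, the change of hsa-miR-146a in HCSCs was under 2-fold and its direction depended on the scaling. In TPM it was 1.73-fold higher in Hep3B-C than in Hep3B (log2 fold-change 0.79, interval 0.78 to 0.80), below the median of all miRNAs, with 352 of 475 miRNAs higher. On the share of miRNA counts the order was reversed, with a log2 fold-change of -0.98, and TMM library sizes (-0.63) and DESeq2 size factors (-0.39) reversed it too. In the Huh7 pair its log2 fold-change in TPM was -0.51 (interval -0.66 to -0.37), with 188 of 431 miRNAs higher. It was -0.20 with TMM, 0.062 with DESeq2 size factors and 0.0064 with total miRNA counts.

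Between the lines, hsa-miR-146a was 77.8-fold lower in Huh7 than in Hep3B (log2 fold-change -6.28, interval -6.38 to -6.19) and 191-fold lower in Huh7-C than in Hep3B-C (-7.58, interval -7.69 to -7.47). This direction held with sizes from total miRNA counts (-8.67 and -7.68), with TMM (-7.74 and -7.31) and with DESeq2 size factors (-7.73 and -7.27). These comparisons share their libraries with those within the lines.

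**Figure D1:**
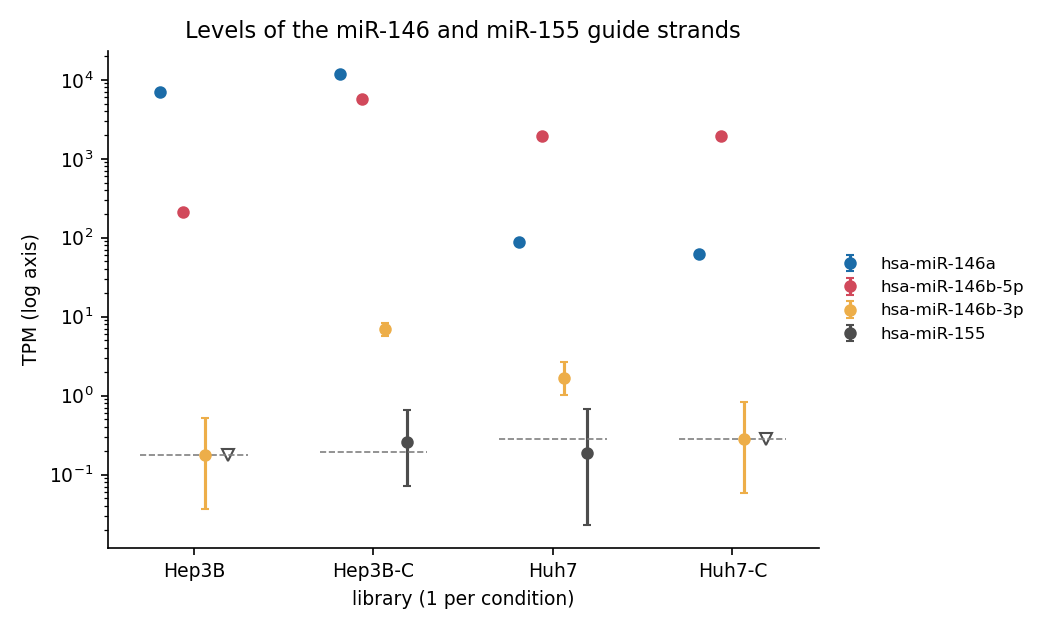
Level of each member in TPM (log axis) in the 4 libraries, with 95% Poisson intervals (counting error only). Dashed lines mark 3 counts, and open triangles on them mark a count of 0. Hsa-miR-146a stands at 6968 and 12022 TPM in the Hep3B line and under 100 TPM in the Huh7 line, and hsa-miR-155 lies near the dashed line in every library.

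Hsa-miR-146b-5p, which shares its seed with hsa-miR-146a, was the member that differed most between an HCSC line and its parent at high depth. It had 3548 counts (211 TPM, interval 205 to 218) in Hep3B and 89356 counts (5787 TPM, interval 5749 to 5825) in Hep3B-C. The Huh7 library held 20612 counts of it (1940 TPM, interval 1914 to 1967) and the Huh7-C library 20779 counts (1939 TPM, interval 1913 to 1966). It ranked 43rd in Hep3B, 13th in Hep3B-C, 23rd in Huh7 and 20th in Huh7-C. Hep3B thus held the lowest level and Hep3B-C the highest, with the Huh7 libraries between them and, in TPM, within counting error of each other. On the share of miRNA counts the order from the lowest was Hep3B (0.204%), Huh7 (0.359%), Huh7-C (0.514%) and Hep3B-C (1.65%), and no neighbouring intervals overlapped.

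From Hep3B to Hep3B-C, hsa-miR-146b-5p rose 27.4-fold (interval 26.5 to 28.3), or by 4.77 on the log2 scale (interval 4.73 to 4.82). This was 3.35 above the median of all miRNAs on the log2 scale, with 18 of 475 miRNAs higher. The log2 fold-change was 3.01 with total miRNA counts as library sizes, 3.36 with TMM and 3.60 with DESeq2 size factors. From Huh7 to Huh7-C the TPM of hsa-miR-146b-5p was 0.999-fold that of the parent (interval 0.980 to 1.02), where the other library sizes gave log2 fold-changes of 0.52, 0.32 and 0.57. The log2 fold-change of the Hep3B pair thus exceeded that of the Huh7 pair by 4.78 in TPM, with no replicate to test this difference. Between the parent lines, hsa-miR-146b-5p was 9.18-fold higher in Huh7 than in Hep3B (log2 fold-change 3.20, and 0.82 with total miRNA counts). Between the HCSCs it was 2.98-fold lower in Huh7-C than in Hep3B-C (log2 fold-change -1.58, and -1.68 with total miRNA counts).

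**Figure D2:**
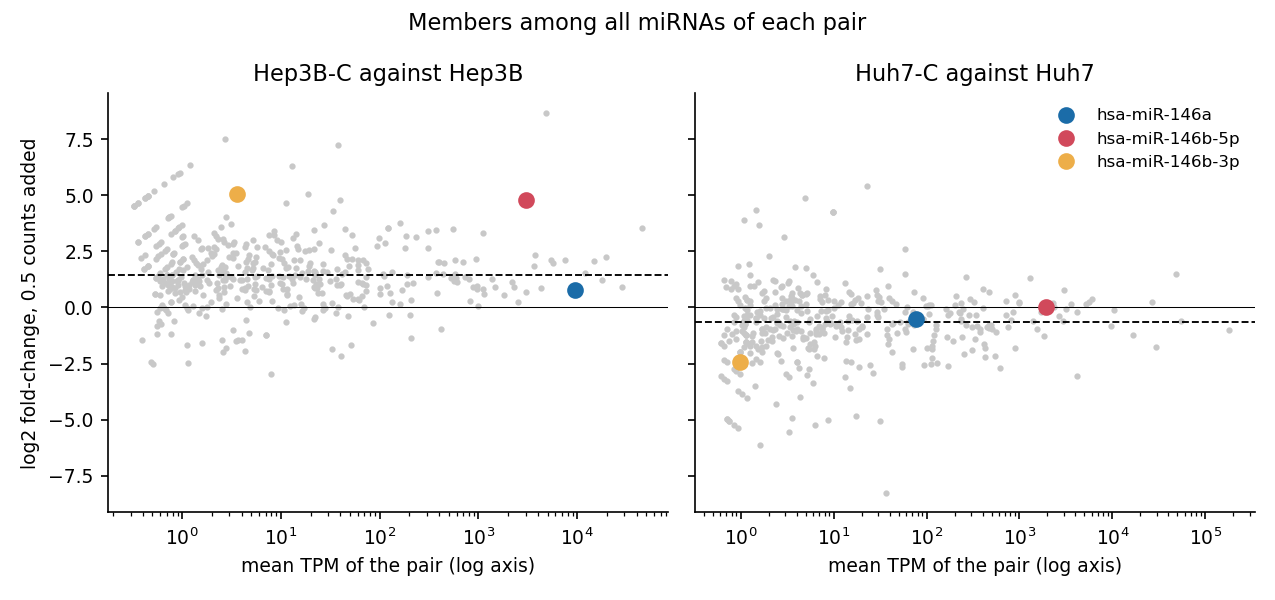
Log2 fold-change (0.5 counts added) against the mean TPM of the pair (log axis) for every miRNA that reached 10 counts in a library of the pair (grey), with the members in colour. Solid lines mark 0 and dashed lines the median of all miRNAs. In the Hep3B pair hsa-miR-146b-5p and hsa-miR-146b-3p lie well above the median of 1.42 and hsa-miR-146a below it, while in the Huh7 pair hsa-miR-146a lies near the median of -0.66, hsa-miR-146b-5p above it and hsa-miR-146b-3p below it.

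The share of the guides with the common seed does not depend on a library size. Of the reads of hsa-miR-146a and hsa-miR-146b-5p together, hsa-miR-146a held 97.1% in Hep3B (interval 97.0% to 97.2%) and 67.5% in Hep3B-C (67.3% to 67.7%). It held 4.41% in Huh7 (4.14% to 4.69%) and 3.14% in Huh7-C (2.91% to 3.38%). Its share was lower in the HCSCs than in the parent in both lines, with intervals that do not overlap, by 29.6 percentage points in the Hep3B line and by 1.27 in the Huh7 line. The Huh7 shares rest on 951 and 673 counts of hsa-miR-146a. How many of these reads belong to the other guide was not tested. The sum of both guides was 7179 TPM for Hep3B, 17809 for Hep3B-C, 2030 for Huh7 and 2002 for Huh7-C. As a share of miRNA counts the sum was 6.93%, 5.06%, 0.376% and 0.530% in the same order. In TPM the summed level was 2.48-fold higher in Hep3B-C than in Hep3B (log2 fold-change 1.31, interval 1.30 to 1.32), which is near the median of all miRNAs in that pair, whereas as a share of miRNA counts it was lower in Hep3B-C.

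**Figure D3:**
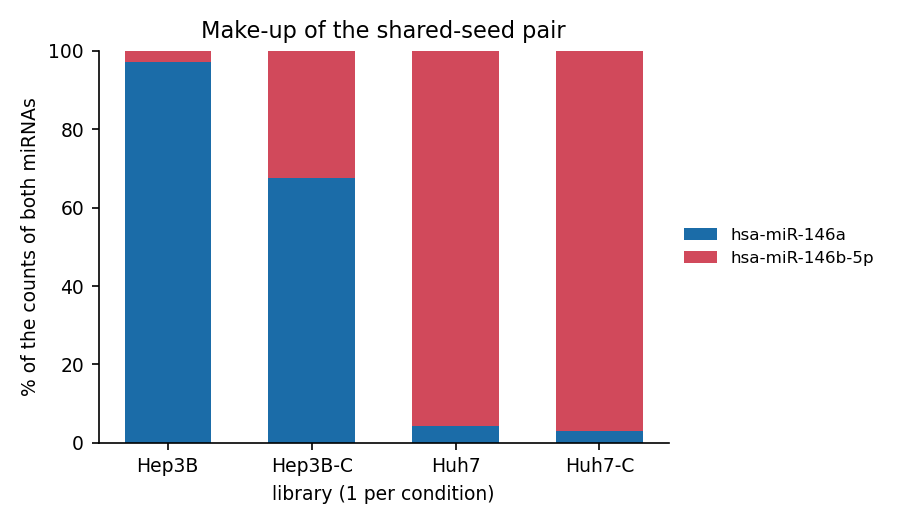
Share of hsa-miR-146a and of hsa-miR-146b-5p in the counts of both, in percent, for the 4 libraries. Hsa-miR-146a makes up 97.1% in Hep3B and 67.5% in Hep3B-C, and under 5% in both Huh7 libraries.

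Hsa-miR-146b-3p, the lesser arm of the same hairpin, had few reads everywhere. Its reads numbered 3 in Hep3B (0.179 TPM), 107 in Hep3B-C (6.93 TPM), 18 in Huh7 (1.69 TPM) and 3 in Huh7-C (0.280 TPM). Hep3B-C was the highest library, as for the 5p arm, and Hep3B and Huh7-C were at the floor of 3 counts. From HCC cells to HCSCs its log2 fold-change was 5.28 for the Hep3B line (interval 3.69 to 7.58) and -2.60 for the Huh7 line (interval -5.00 to -0.82). The interval of the Hep3B pair holds the 4.77 of the 5p arm, while that of the Huh7 pair lies below the value near 0 of the 5p arm. As a share of the hairpin's reads, hsa-miR-146b-3p was 0.0845% for Hep3B (interval 0.0174% to 0.247%), 0.120% for Hep3B-C (0.0980% to 0.1445%) and 0.0873% in Huh7 (0.0517% to 0.138%). In Huh7-C it was 0.0144% (0.0030% to 0.0422%), below the interval of Huh7, on 3 reads.

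The other arm of the miR-146a hairpin, hsa-miR-146a*, had 0 counts in all 4 libraries beside up to 185624 counts of the guide. A count of 0 allows a share of the hairpin of up to 0.0020% in Hep3B-C and 0.0032% in Hep3B, below the shares that hsa-miR-146b-3p had of its hairpin there. In Huh7 and Huh7-C the limits were 0.387% and 0.547%, which the depth of that hairpin cannot improve.

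Hsa-miR-155, the best known inflammatory miRNA of lymphocytes and macrophages, had 0 counts in Hep3B, 4 in Hep3B-C (0.259 TPM), 2 in Huh7 (0.188 TPM) and 0 in Huh7-C. A count of 0 allows up to 0.220 TPM in Hep3B and 0.344 TPM in Huh7-C. The interval in Hep3B-C, 0.0706 to 0.663 TPM, holds the limit in Hep3B, so no order of the libraries was detectable at this depth and no fold-change is given for either pair. Its other arm, hsa-miR-155*, had 0 counts in each library. Hsa-miR-155 was thus at or under 3 counts in 3 libraries, whereas hsa-miR-146a and hsa-miR-146b-5p each had at least 89356 counts in Hep3B-C. Hsa-miR-3142, whose gene lies upstream of MIR146A in an intron of MIR3142HG, had 4 counts in Hep3B-C and 0 in the other libraries.

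MiRNAs were called by the study's thresholds, a change of 2-fold or more with an adjusted p not above 0.01, here from the exact Poisson test. By these, 2 of the 4 members were called up-regulated in Hep3B-C, namely hsa-miR-146b-5p and hsa-miR-146b-3p. None was called down-regulated. Over all 834 miRNAs tested in this pair, the up-regulated made up 33.0% and the down-regulated 2.52%. In Huh7-C, 1 of the 4 members, hsa-miR-146b-3p, was called down-regulated and none up-regulated, beside 17.1% down-regulated and 2.98% up-regulated among 772 miRNAs. With the filter of 10 counts, 137 of 431 were down-regulated and 24 up-regulated in that pair. This test compares 2 libraries and not the conditions. The split of calls follows the scaling, since total miRNA counts as library sizes gave 44 up- and 112 down-regulated miRNAs in the Hep3B pair in place of 275 and 21, and 54 and 74 in the Huh7 pair in place of 23 and 132. The calls of both miR-146b arms in Hep3B-C held under the 3 other library sizes and in edgeR's exact test with a biological coefficient of variation set to 0.4. That of hsa-miR-146b-3p in Huh7-C was lost under each of these.

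**Figure D4:**
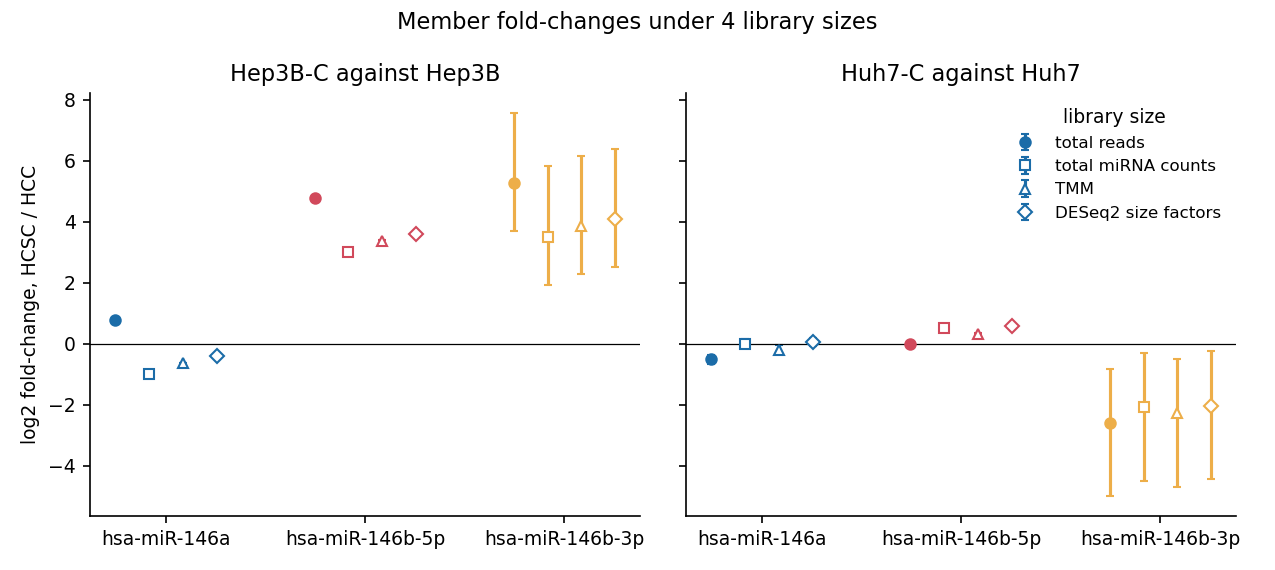
Log2 fold-change (HCSC over HCC) of 3 members in each pair with total reads (filled), total miRNA counts, TMM and DESeq2 size factors (open) as library sizes. Bars are 95% exact binomial intervals of the counts, and many are smaller than the symbols. In the Hep3B pair hsa-miR-146a moves from 0.79 to values below 0, while hsa-miR-146b-5p stays between 3.01 and 4.77.

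With the lines taken as repeats of the contrast, the HCSC change varied more between lines than its mean for every member with a fold-change. The mean log2 fold-change in TPM was 0.14 ± 0.92 for hsa-miR-146a, 2.39 ± 3.38 for hsa-miR-146b-5p and 1.34 ± 5.57 for hsa-miR-146b-3p (SD, n = 2 lines). EdgeR's quasi-likelihood test over both lines, with the line as a replicate block, called none of these 3 members and 0 of 443 miRNAs (0%). With n = 2 lines, a change that differs between the lines is easily missed. The lack of calls thus does not show that the members were unchanged. Among the 443 miRNAs, 31 had an unadjusted p under 0.05, and DESeq2 called 5, none of them a member. Hsa-miR-155 had too few counts to enter this fit.

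The patterns most like those of the members were sought over the 4 libraries among 440 other miRNAs (10 or more counts in 2 or more libraries), by the root mean square difference of centred log2 TPM. For hsa-miR-146a they were hsa-miR-3131 (0.33), hsa-miR-335* (0.44) and hsa-miR-651 (0.45), where the median over all was 3.71. Those miRNAs had between 89 and 510 counts in the Hep3B line and at most 1 in the Huh7 line, so their distances and order rest on single reads and on the 0.5 counts added to each count. For hsa-miR-146b-5p they were hsa-miR-671-3p (0.61), hsa-miR-4690-5p (0.65) and hsa-miR-616 (0.66), beside a median of 1.69. These had between 1 and 64 counts, so their own patterns are loosely set. For hsa-miR-146b-3p they were hsa-miR-3192 (0.86), hsa-miR-3145-3p (0.87) and hsa-miR-141 (0.93), beside a median of 1.94. Among the members, the arms of the miR-146b hairpin differed by 1.14, and hsa-miR-146a differed from hsa-miR-146b-5p by 4.12, more than the median miRNA.

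A list of 18 other miRNAs tied to the NF-kB or Toll-like receptor response was set beside the members. In the Hep3B pair 5 of 16 tested were up-regulated, beside 33.0% of all miRNAs, and 1 was down-regulated, beside 2.52%. In the Huh7 pair 0 of 16 were up-regulated, beside 2.98%, and 4 down-regulated, beside 17.1%. Only 13 listed miRNAs reached 10 counts in each pair, and all of these calls were among them. With a filter of 10 counts, 277 of 475 miRNAs were up-regulated in the Hep3B pair, a higher share than 5 of 13. In the Huh7 pair 137 of 431 were then down-regulated and 24 up-regulated. Scaled to total miRNA counts, the list had 0 up and 6 down in the Hep3B pair, beside 44 and 112 of all 834 miRNAs. In the Huh7 pair it then had 1 up and 2 down, beside 54 and 74 of all 772. The median log2 fold-change of the list was 0.91 in the Hep3B pair, against 1.42 over all miRNAs, and -0.96 in the Huh7 pair, against -0.66, over 13 listed miRNAs each. Hsa-miR-21, which STAT3 induces, was the most abundant, with log2 fold-changes of 0.91 for Hep3B-C and -1.002 for Huh7-C, where it fell. Hsa-let-7e, a repressor of Toll-like receptor 4, had 0.30 and, in the Huh7 pair, fell by 1.31 on the log2 scale. Hsa-miR-9, which Toll-like receptor ligands induce in monocytes, rose by 2.57 on the log2 scale in the Hep3B pair and had 0.20 in the Huh7 pair. Hsa-miR-221, which represses the cell cycle inhibitor p27, had log2 fold-changes of -0.00090 and -0.96. The highest value of the list in the Hep3B pair was the 3.12 of hsa-miR-132, on 5 and 40 counts, below the 4.77 of hsa-miR-146b-5p but with a counting interval up to 4.82.

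**Figure D5:**
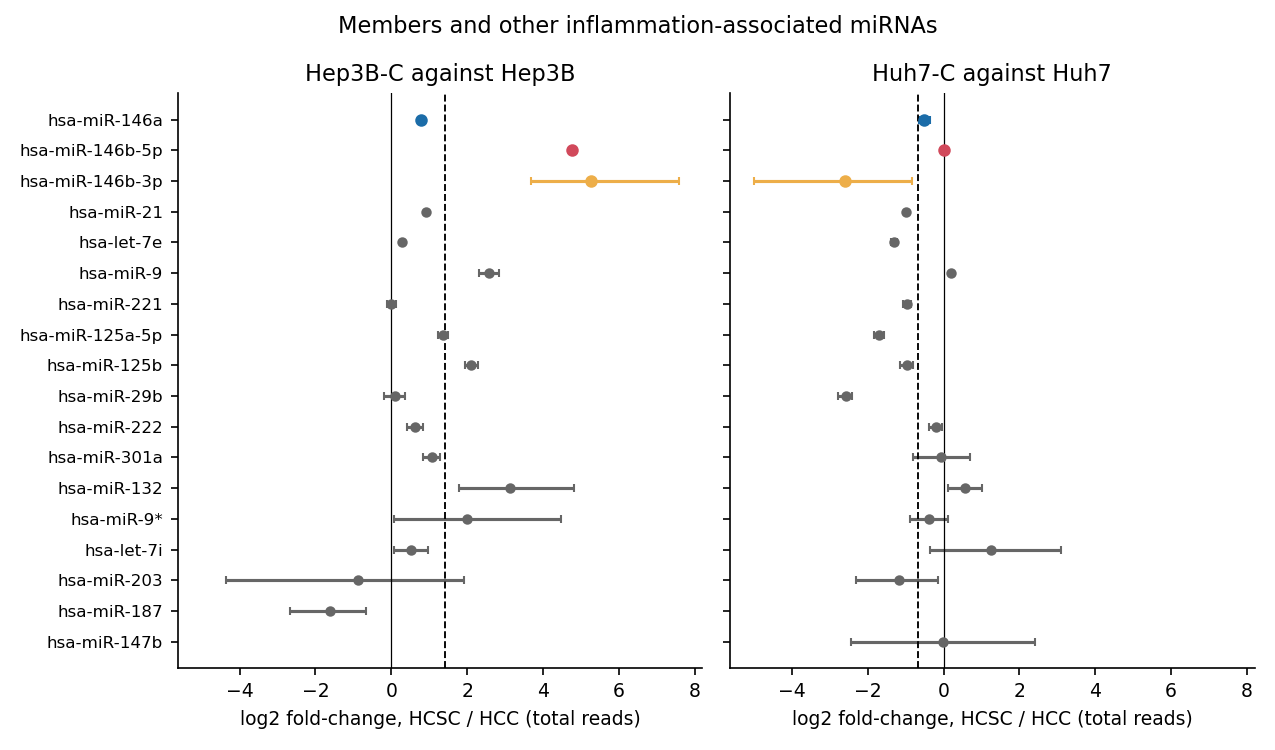
Log2 fold-change (HCSC over HCC, total reads as library sizes) of 3 members (colour) and of the listed inflammation-associated miRNAs (grey, ordered by mean TPM from the most abundant down), with 95% exact binomial intervals. Solid lines mark 0 and dashed lines the median of all miRNAs, 1.42 and -0.66. Hsa-miR-146b-5p at 4.77 lies to the right of the listed miRNAs in the Hep3B pair and at 0 in the Huh7 pair.

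Marker miRNAs of blood cells, among them the cells best known for miR-155 and miR-146a, were near 0 in 3 libraries. Over 7 such miRNAs the counts summed to 8 for Hep3B, 1 for Hep3B-C, 800 for Huh7 and 11 for Huh7-C, with 3, 6, 3 and 4 of the 7 at 0, and hsa-miR-144 and hsa-miR-150 had 0 counts throughout. In Huh7 the sum was mostly hsa-miR-451, a miRNA of red blood cells, with 773 counts there and at most 2 elsewhere. Hsa-miR-142-3p had 20 counts in Huh7, 3 in Huh7-C, 4 in Hep3B and 0 in Hep3B-C. In Huh7, hsa-miR-223 of myeloid cells had 0. The part of such cells in the levels of the members was not tested. Endothelial and mesenchymal markers summed to between 77.6 TPM (Hep3B) and 214 TPM (Hep3B-C) over 5 miRNAs. As a share of miRNA counts the order of these libraries was reversed, with 1303 of 1739278 in Hep3B and 3306 of 5430195 in Hep3B-C. Of the 4 tested in each pair, 2 were up-regulated in Hep3B-C (33.0% of all miRNAs) and 2 down-regulated in Huh7-C (17.1% of all). With total miRNA counts as sizes, 0 of these markers were called in either pair. A filter of 10 counts, which 3 of these markers passed in each pair, gave other shares over all miRNAs. They were 277 of 475 up-regulated in Hep3B-C and 137 of 431 down-regulated in Huh7-C. The 5 hepatocyte miRNAs summed to 16675 TPM for Hep3B, 59243 for Hep3B-C, 139807 for Huh7 and 88238 for Huh7-C, with hsa-miR-122 at 397 counts in Hep3B and at least 144814 in each other library. All 5 were up-regulated in Hep3B-C, beside 33.0% of all miRNAs, and 2 down-regulated in Huh7-C, beside 17.1%. All 5 also passed the filter of 10 counts in each pair, with its 277 of 475 up-regulated and 137 of 431 down-regulated. With total miRNA counts as sizes, 2 of the hepatocyte miRNAs were up-regulated in Hep3B-C, and the 2 calls in Huh7-C held. In TPM this sum was lowest in Hep3B, as was the level of hsa-miR-146b-5p. As a share of miRNA counts the sum differed little within the Hep3B pair (279855 of 1739278 in Hep3B, 914740 of 5430195 in Hep3B-C). That sum was mostly hsa-miR-192 and hsa-miR-148a, with 179088 and 95296 counts in Hep3B. It hides hsa-miR-122, which went from 397 to 149892 counts in that pair, and hsa-miR-122*, which went from 0 to 83. The share of hsa-miR-146b-5p in that pair went from 0.204% to 1.65%. The part of the hepatocyte miRNAs in the differences of hsa-miR-146b-5p was not tested.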

How the data were processed

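Small RNA was sequenced from 4 cell populations with 1 library each. Before depositing the data, the authors assigned reads of 18 nt or longer to miRBase release 17. SOAP was their aligner and NCBI Build 36.1 their genome, and reads of other small RNA classes or from contaminants had been taken out. They deposited raw read counts per mature miRNA, with no normalization. Tool versions are not given in the sources used here.

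TPM was computed here by dividing the deposited counts by the library totals that the study states. Each pair was tested over the miRNAs it detected with the Audic-Claverie test (exact Poisson, 2-sided), both tails holding the observed count, with Benjamini-Hochberg adjustment and a TPM of 0 set to 0.001. Both lines together were fitted with edgeR's quasi-likelihood test (TMM, at least 10 counts in at least 2 libraries, adjusted p of at most 0.05), with the line as a block, since labels and methods pair each HCSC line with its parent. Centred on their cell state, the libraries of a line correlated with Pearson r = 0.833 across 443 miRNAs, which are not independent. Intervals are Clopper-Pearson for shares and fold-changes and exact Poisson for levels. Reads had no molecular identifiers, so intervals and limits cover counting error only.

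The members, the lists and the markers were chosen with earlier results of these data known. The named miRNAs were the members, the other arms, hsa-miR-3142, the 3 nearest patterns of each member and the 4 most abundant of the inflammation list. Hsa-miR-132 and the single marker miRNAs were named after their values were seen, and hsa-miR-7153-5p for its seed. Alternatives were 3 other library sizes, a filter of 10 counts, 0.5 counts added, an assumed variation between cultures, other models over both lines and each library left out. The tests were run on simulated data with known changes. For the pair test these data held counting error only, with no variation between cultures. Python 3.11.15 (numpy 2.4.6, scipy 1.17.1, pandas 2.3.3) and R 4.3.3 (edgeR 4.0.16, DESeq2 1.42.0) were used.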

Additional observations from a re-analysis of the deposited data

Results flagged for a closer look

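Hsa-miR-146a and hsa-miR-146b-3p had log2 fold-changes of opposite sign in the lines in TPM, with neither counting interval reaching 0. The log2 fold-change of the Hep3B pair exceeded that of the Huh7 pair by 1.30 for hsa-miR-146a (0.79 against -0.51) and by 7.87 for hsa-miR-146b-3p (5.28 against -2.60). With 1 library per condition, neither difference was tested. For hsa-miR-146a the signs depend on the library size, since total miRNA counts gave -0.98 and 0.0064. For hsa-miR-146b-3p the signs held under all 4 library sizes, but the value rests on 3 counts in Hep3B and 3 in Huh7-C.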

How the results depend on the processing

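Adding 0.5 counts left every member fold-change within its counting interval. Total miRNA counts, TMM and DESeq2 size factors, in this order, reversed hsa-miR-146a in the Hep3B pair (-0.98, -0.63 and -0.39) and moved hsa-miR-146b-5p there to 3.01, 3.36 and 3.60, and total miRNA counts moved hsa-miR-146b-3p there to 3.51. In the Huh7 pair the same order gave 0.0064, -0.20 and 0.062 for hsa-miR-146a and 0.52, 0.32 and 0.57 for hsa-miR-146b-5p, whose value in TPM was -0.00088. These shifts follow from the library sizes alone, which move all miRNAs of a pair by the same amount. Calls over all miRNAs in the Hep3B pair went from 275 up and 21 down to 44 and 112 with total miRNA counts, 71 and 76 with TMM and 92 and 59 by DESeq2 size factors. Those of the Huh7 line went from 23 and 132 to 54 and 74, 38 and 90, and 57 and 71. An assumed biological coefficient of variation of 0.4 in edgeR's exact test left 25 up and 0 down in Hep3B-C and 5 up and 10 down in Huh7-C. A filter of 10 counts, 0.5 counts added and, chosen after seeing the data, leaving the observed count out of the upper tail kept each of these counts within 1.5 times. Over both lines, edgeR called 0 miRNAs with total reads, without the count filter, without the replicate block and without each library in turn (without the block), where a lone library of a state is assumed to vary like the others. Unadjusted p under 0.05 then numbered between 2 and 47. DESeq2 called 4 up and 1 down, for a cause that was not tested. Members under 10 counts, hsa-miR-155 above all, are limited by depth, and the abundant ones by the missing replicates.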
